A study of Homo sapiens with 4 samples.

Results

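NDRG1 and 9 genes of the response to low oxygen were followed through RNA sequencing of the human stomach cancer cell line NUGC3. The 10 genes are NDRG1, HIF1A, EPAS1, CA9, ADM, BNIP3, EGLN3, P4HA1, ANKRD37 and HILPDA. They were taken by symbol from the 53777 Ensembl genes of the deposited table, and all 10 were found once. The 4 libraries were 2 of wild-type cells and 2 of cells labelled as a MYC knockdown, which shared the same parent line and carried no other labelled allele or agent. How MYC was knocked down, whether the knockdown cells were 1 clone, and the oxygen level of the cultures are not stated in these sources. NDRG1 was chosen by its low FPKM in the knockdown libraries relative to wild type, so its difference between the groups is a description with no test. The other 9 genes were taken for their known part in the hypoxia response, with earlier results of these data known.

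Cells sense oxygen through enzymes that hydroxylate prolines of the hypoxia-inducible factors. HIF1A and EPAS1 encode the alpha subunits of HIF-1 and HIF-2. The hydroxylases, EGLN3 among them, mark these subunits for VHL, which sends them to the proteasome. When oxygen is low the subunits persist, pair with ARNT and switch on target genes. This control acts mostly on the protein, so RNA levels of HIF1A and EPAS1 do not measure HIF activity. NDRG1 is one of the most used hypoxia-induced genes and also belongs to the genes that MYC is known to repress. Its product is a cytoplasmic protein tied to differentiation, stress and, in many tumours, reduced spread.

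The HIF dimer recognises ACGTG or GCGTG, and MYC with its partner MAX recognises CACGTG, which holds ACGTG on both strands. RefSeq promoter sequences on GRCh38.p14 matched 8 of the 10 genes, with 9 entries, and NDRG1 and HILPDA had none. In the 250 bases before the start, ACGTG was found on either strand in 4 of the 9 entries and in 18.5% of all 35116 entries. CACGTG was found in 2 of the 9 entries and in 6.34% of all. GCGTG was found in 4 of the 9 entries and in 32.2% of all. The 4 stretches with ACGTG are shown. The full CACGTG of MYC with MAX is present in the BNIP3 and ANKRD37 stretches only, and not in those of CA9 and P4HA1. Each is written 5′ to 3′ along the gene, with the matches in capitals, where CACGT is ACGTG read from the other strand.
CA9 (chr9:35673900-35673924, plus strand, match starting 18 bases before the start): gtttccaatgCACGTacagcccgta
P4HA1 (chr10:73096938-73096962, minus strand, 86 bases before the start): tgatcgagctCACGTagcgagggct
BNIP3 (chr10:131982042-131982067, minus strand, 134 bases before the start): gcacgcgccgCACGTGccacacgcac
ANKRD37 (chr4:185396676-185396705, plus strand, 162 and 143 bases before the start): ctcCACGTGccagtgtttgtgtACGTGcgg
The starts meant here are those of the RefSeq entries, which lie 72 (CA9), 108 (P4HA1), 90 (BNIP3) and 820 (ANKRD37) bases downstream of the GENCODE gene starts given with each gene. The CA9, P4HA1 and ANKRD37 stretches therefore lie inside the GENCODE gene spans. These matches are letters only. Of the 4 genes, ANKRD37 and P4HA1 were tested, and neither had a limma adjusted p under 0.10, against 10.4% of all genes. CA9 and BNIP3 were barely detected in any library. The entry of EGLN3, which had the largest difference of the tested genes besides NDRG1, held no match of any kind searched for. Whether the matches bear on the differences was not tested.

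MYC itself was only slightly lower in the libraries labelled as knockdown, at 82.9 and 82.0 FPKM in wild type and 64.98 and 75.8 FPKM in the knockdown (limma adjusted p = 0.237). FPKM corrects fragment counts for transcript length and sequencing depth, so levels can be compared between genes. Differences below are knockdown minus wild type on the log2(FPKM + 1) scale, on which changes of weakly expressed genes come out too small. Of 12953 genes that reached 1 FPKM in 2 or more libraries, limma with Benjamini-Hochberg adjustment called 0 (0%) at 0.05 and 1349 (10.4%) at 0.10, and 3354 genes had an unadjusted p under 0.05. At 0.10, 713 genes (5.5%) were higher and 636 (4.91%) were lower. The groups did not overlap for 58.6% of the genes tested, 33.4% with the knockdown values higher and 25.2% with them lower. Epithelial markers were abundant, with 7 of 7 tested and a summed level of 5206 to 5257 FPKM in wild type and 5505 to 6055 FPKM in the knockdown. Of 9 matched blood, stromal and endothelial markers, PTPRC, DCN, COL3A1 and VWF were listed at 0 in every library and the sum was 3.61 to 8.77 FPKM, mostly COL1A1. The knockdown libraries differed more from each other than the wild-type pair, with a median absolute log2 difference of 0.20 against 0.08. MYC knockdown replicate 1 held high interferon-stimulated RNA, at a sum of 1349 FPKM over 20 such genes against 158 to 164 FPKM in the other libraries. Genes of the mitochondrial genome took 8.19% of the Ensembl FPKM in MYC knockdown replicate 2 and 9.55% to 11.1% in the others. The part of these library differences in the results that follow was not tested. The labels do not say whether replicates were separate cultures, and p-values therefore reflect only the spread between these libraries, which may be technical. In bulk RNA, fewer cells expressing a gene and less RNA per cell cannot be told apart.

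**Figure D1:**
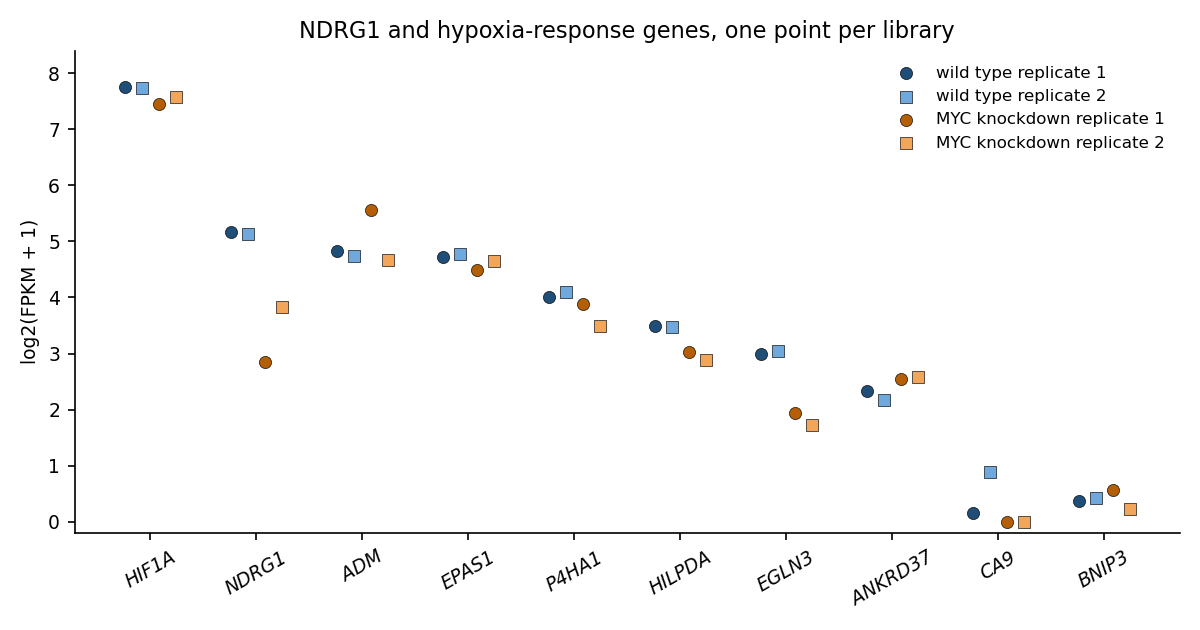
Level of each of the 10 genes as log2(FPKM + 1), with 1 point per library (2 wild type, 2 MYC knockdown) and genes ordered by their wild-type mean. The knockdown points of NDRG1 (6.25 and 13.2 FPKM) and EGLN3 (2.84 and 2.31 FPKM) sit well under their wild-type points, while HIF1A and EPAS1 move little and ADM is high in 1 knockdown library only.

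Within wild-type cells, HIF1A had the highest level of the 10, a mean of 214 FPKM, and NDRG1 came next at 34.5 FPKM. ADM at 26.5 FPKM and EPAS1 at 25.8 FPKM followed, and their wild-type values overlapped. P4HA1 stood at 15.6 FPKM, HILPDA at 10.2 FPKM, EGLN3 at 7.10 FPKM and ANKRD37 at 3.79 FPKM, each apart from its neighbours in both libraries. CA9 and BNIP3, at 0.490 and 0.320 FPKM, overlapped and did not reach the level needed for the test, so 8 of the 10 genes were tested. In the knockdown libraries NDRG1 dropped from the second to the fifth place, at a mean of 9.71 FPKM, where its values overlapped those of P4HA1 and HILPDA.

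NDRG1 (ENSG00000104419; chromosome 8, 133237171 to 133302022, minus strand, in GENCODE release 29 on GRCh38) stood at 34.91 and 34.03 FPKM in wild type against 6.25 and 13.2 FPKM in MYC knockdown replicates 1 and 2. Both knockdown libraries were far below both wild-type libraries, and the groups did not overlap. MYC knockdown replicate 1 kept 18.1% and MYC knockdown replicate 2 kept 38.2% of the wild-type mean. The mean difference was −1.81 on the log2 scale, number 19 of 12953 when the tested genes are ordered from the most negative difference. The knockdown pair lay 0.97 apart on the log2 scale, a wider gap than 96.5% of the genes tested showed in that pair, against 0.04 for the wild-type pair. Both libraries were on the same side of wild type, with differences of different size, at −2.29 and −1.32 in the order of the replicates.

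NDRG1, chosen for its low knockdown values, was the only one of the 4 family members with a difference of this size. NDRG3, a close relative in sequence, stood at 44.7 and 46.5 FPKM in wild type against 52.3 and 50.7 FPKM in the knockdown. It was thus slightly higher in both knockdown libraries, and the log2 difference of 0.17 was not called (limma adjusted p = 0.244). NDRG2, which MYC is also known to repress, was weakly expressed, at 1.94, 2.83, 1.87 and 1.79 FPKM (wild type replicates 1 and 2, then MYC knockdown replicates 1 and 2). NDRG4 was as low, at 1.17, 2.0, 2.08 and 1.23 FPKM, with overlapping groups.

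Of 13 genes besides NDRG1 that are known as repressed by MYC, 11 were tested. At an adjusted p under 0.10, 1 was higher, the integrin gene ITGB1, and 1 was lower, GADD45A, against 5.5% and 4.91% of all genes. Their median difference was 0.22, against 0.04 over all genes tested. THBS1, the secreted matrix protein thrombospondin-1, stood at 86.6 and 82.6 FPKM in wild type against 124 and 235 FPKM in the knockdown, the opposite direction to NDRG1 (log2 difference 1.01, limma adjusted p = 0.139). GADD45A, a DNA damage response gene named here after its values were seen, was lower like NDRG1, at 34.2 and 30.9 against 17.6 and 15.2 FPKM. CDKN1A, the cell cycle inhibitor p21, also chosen after its values were seen, was at 16.0 and 17.7 against 18.0 and 39.3 FPKM, high in MYC knockdown replicate 2 alone.

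Of the transcription factors known to act on NDRG1, 1 had a difference of similar size. EGR1, an immediate early factor that binds the NDRG1 promoter, was lower in both knockdown libraries, at 12.8 and 9.69 FPKM against 42.8 and 43.7 FPKM in wild type (log2 difference −1.87 with a standard error of 0.15, limma adjusted p = 0.0556). MYCN was at or near 0 in every library. Of the 7 tested regulators in this list, 1 had an adjusted p under 0.10, against 10.4% of all genes. Of 4 tested kinases that phosphorylate the NDRG1 protein, 2 were lower and 0 higher under 0.10, against 4.91% and 5.5% of all genes. SGK1, the kinase whose activity is often read from phosphorylated NDRG1, stood at 281 and 274 FPKM in wild type against 217 and 222 FPKM in the knockdown (limma adjusted p = 0.0794). GSK3B was at 26.2 and 26.3 against 20.4 and 18.0 FPKM (limma adjusted p = 0.0938). Neither was called at 0.05. GSK3A stood at 32.1 and 33.75 against 42.9 and 34.99 FPKM (limma adjusted p = 0.311) and SGK3 at 1.86 and 2.42 against 3.06 and 2.55 FPKM (limma adjusted p = 0.379), both named after their values were seen. The groups did not overlap for any of these 4 kinases, nor for 58.6% of all genes tested. SGK1 and GSK3B were lower and GSK3A and SGK3 higher in the knockdown libraries.

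HIF1A (ENSG00000100644; chromosome 14, 61695513 to 61748259, plus strand) was abundant in all libraries, at 215 and 213 FPKM in wild type and 174 and 191 FPKM in the knockdown. Both knockdown values were below both wild-type values, yet the difference of −0.23 (95% interval −0.44 to −0.03) did not pass after adjustment (limma adjusted p = 0.161). EPAS1 (ENSG00000116016; chromosome 2, 46293667 to 46386703, plus strand) stood at 25.4 and 26.3 FPKM in wild type against 21.5 and 24.3 FPKM in the knockdown. Its difference of −0.17 (95% interval −0.43 to 0.09) did not pass either (limma adjusted p = 0.342). Per length, HIF1A RNA was 8.12 and 8.48 times as abundant as EPAS1 RNA in wild type and 7.85 and 8.11 times in the knockdown. With equal column sums the differences were −0.14 for HIF1A and −0.08 for EPAS1. The antisense gene HIF1A-AS1 was at most 0.33 FPKM and HIF1A-AS2 was listed at 0.

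Among HIF subunits, partners and coactivators, 0 of 6 tested genes had an adjusted p under 0.10, against 10.4% of all genes. The shared beta subunit ARNT was at 17.9 and 16.8 FPKM in wild type and 17.2 and 15.6 FPKM in the knockdown. CITED2, a HIF target that competes with HIF for its coactivators, was at 25.9 and 27.2 against 30.9 and 30.9 FPKM (limma adjusted p = 0.196). HIF3A was at or near 0 throughout.

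EGLN3 (ENSG00000129521; chromosome 14, 33924231 to 34462774, minus strand), the prolyl hydroxylase that is itself induced by HIF, showed the largest difference of the 7 tested genes besides NDRG1. It stood at 6.94 and 7.26 FPKM in wild type against 2.84 and 2.31 FPKM in the knockdown, a mean of 7.10 ± 0.226 against 2.58 ± 0.375 FPKM (SD, n = 2). Both knockdown libraries kept about the same share, 40.0% and 32.5% of the wild-type mean. The log2 difference was −1.18 with a standard error of 0.14 and a 95% interval of −1.55 to −0.81 (limma adjusted p = 0.0556). That value is the smallest adjusted p of the whole fit, but genes with much smaller unadjusted p share it. The unadjusted limma p was 0.00057 for EGLN3 and 1.1e-05 for COL4A1, which has the same adjusted p. Leaving out wild type replicate 1 or 2, so that the knockdown pair alone sets the spread, gave 0.523 and 0.518. Leaving out MYC knockdown replicate 1 or 2, so that the wild-type pair sets it, gave 0.0113 and 0.0156.

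The other oxygen sensors listed with EGLN3 were not called. EGLN1, the main hydroxylase of HIF alpha, was at 13.3 and 14.1 FPKM in wild type and 14.7 and 14.6 FPKM in the knockdown, and EGLN2 was at 16.2 and 17.4 against 17.2 and 16.2 FPKM. HIF1AN, the asparagine hydroxylase that blocks coactivator binding, was at 8.96 and 10.4 against 12.9 and 13.7 FPKM (limma adjusted p = 0.119). VHL, the ubiquitin ligase subunit, went the other way, at 25.9 and 24.1 against 17.9 and 20.8 FPKM (limma adjusted p = 0.146). Of the 9 tested genes of oxygen sensing and HIF degradation, EGLN3 was the only one with an adjusted p under 0.10, against 10.4% of all genes.

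HILPDA (ENSG00000135245; chromosome 7, 128455849 to 128458418, plus strand), a small protein that inhibits the lipase ATGL on lipid droplets, stood at 10.3 and 10.1 FPKM in wild type against 7.18 and 6.36 FPKM in the knockdown. Both knockdown values were lower and close together, at a log2 difference of −0.53 (95% interval −0.83 to −0.23, limma adjusted p = 0.0868). That p was 0.603 and 0.597 without wild type replicate 1 or 2, and 0.0226 and 0.0351 without MYC knockdown replicate 1 or 2. PNPLA2, which encodes ATGL, was at 24.96 and 26.59 against 27.66 and 20.03 FPKM, with overlapping groups. ABHD5, the activator of ATGL, was at 11.5 and 11.8 against 13.2 and 16.8 FPKM (limma adjusted p = 0.225). The droplet coat gene PLIN2 was at or near 0 in every library and PLIN3 was at 55.9 to 67.1 FPKM. HILPDA alone was under 0.10 among the 7 tested lipid droplet genes, against 10.4% of all genes.

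P4HA1 (ENSG00000122884; chromosome 10, 73007217 to 73096974, minus strand), a catalytic subunit of the collagen prolyl 4-hydroxylase, stood at 15.1 and 16.1 FPKM in wild type against 13.7 and 10.2 FPKM in the knockdown. The groups did not overlap, but the knockdown libraries kept unequal shares, 87.7% and 65.4% of the wild-type mean. The log2 difference of −0.37 did not pass (95% interval −0.79 to 0.05, limma adjusted p = 0.231). It was −0.18 without MYC knockdown replicate 2 and −0.57 without MYC knockdown replicate 1, and in the latter fit, with 1 knockdown library, the limma adjusted p was 0.0242. P4HA2, its sister subunit and also a HIF target, named after its values were seen, stood at 20.04 and 19.16 FPKM against 21.4 and 26.9 FPKM, with both knockdown values above both wild-type values (limma adjusted p = 0.273). P3H2, a collagen prolyl 3-hydroxylase, was at 4.66 and 4.42 against 10.9 and 7.15 FPKM (limma adjusted p = 0.107). P4HTM, a membrane prolyl 4-hydroxylase of the endoplasmic reticulum, was at 7.01 and 6.96 against 9.98 and 10.1 FPKM (limma adjusted p = 0.0872). PLOD1, a lysyl hydroxylase chosen after its values were seen, was at 21.7 and 19.9 against 27.4 and 30.4 FPKM (limma adjusted p = 0.0914). Of the 11 tested genes listed as procollagen hydroxylases, 2 were higher and 0 lower under 0.10, against 5.5% and 4.91% of all genes. The higher genes were PLOD1 and P4HTM, and procollagen is not the known substrate of P4HTM.

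ADM (ENSG00000148926; chromosome 11, 10304680 to 10307397, plus strand), the vasodilator peptide adrenomedullin, stood at 27.3 and 25.7 FPKM in wild type against 46.4 and 24.4 FPKM in the knockdown. It was high in MYC knockdown replicate 1 and just under wild type in MYC knockdown replicate 2, so the groups overlapped. The mean log2 difference was 0.34 (95% interval −0.48 to 1.15, limma adjusted p = 0.537). Leaving out MYC knockdown replicate 1, the library with high interferon-stimulated RNA, turned it to −0.11. Without MYC knockdown replicate 2 it was 0.79, at a limma adjusted p of 0.0135 that rests on the wild-type pair for its spread. The ADM receptor was hardly expressed, with CALCRL at or near 0 in every library, RAMP2 and RAMP3 listed at 0, and RAMP1 at most 0.50 FPKM. MME, neprilysin, a surface peptidase that can degrade the peptide, was at 25.1 and 24.8 FPKM in wild type and 52.4 and 50.5 FPKM in the knockdown (log2 difference 1.01, limma adjusted p = 0.0556).

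ANKRD37 (ENSG00000186352; chromosome 4, 185396021 to 185400628, plus strand), a HIF-1 target with ankyrin repeats, was the only one of the 10 genes with both knockdown values above both wild-type values. It stood at 4.06 and 3.51 FPKM in wild type against 4.85 and 5 FPKM in the knockdown. Of all genes tested, 33.4% likewise had both knockdown values above both wild-type values. The log2 difference of 0.31 did not pass (95% interval −0.04 to 0.66, limma adjusted p = 0.229).

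CA9 (ENSG00000107159; chromosome 9, 35673856 to 35681159, plus strand), the membrane carbonic anhydrase IX and a classical hypoxia marker, was at 0.12 and 0.86 FPKM in wild type and was listed at 0 in both knockdown libraries. Its level in wild type was thus too low, and too different between the pair, to give a fold. CA12, another membrane carbonic anhydrase of tumours, was at most 0.08 FPKM, and the cytosolic CA2 was at 48.7 and 48.5 against 41.5 and 43.7 FPKM. Of the 7 tested genes of acid and bicarbonate handling, 1 was higher and 2 were lower under 0.10, against 5.5% and 4.91% of all genes. SLC16A3, the lactate exporter MCT4 and a HIF target, was at 70.4 and 68.9 FPKM in wild type and 103 and 109 FPKM in the knockdown (log2 difference 0.60, limma adjusted p = 0.0566). SLC4A7, a sodium bicarbonate cotransporter, was at 18.1 and 18.5 against 9.79 and 12.1 FPKM (log2 difference −0.70, limma adjusted p = 0.0712).

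BNIP3 (ENSG00000176171; chromosome 10, 131966455 to 131982013, minus strand), a mitophagy receptor and a strong HIF-1 target in many cells, was at 0.30 and 0.34 FPKM in wild type and 0.49 and 0.17 FPKM in the knockdown. It was barely detected in any library, and the groups overlapped. The 4 BNIP3 pseudogenes in the table were listed at 0. BNIP3L, the related receptor NIX, was far more abundant per length, at 48.41 and 45.03 against 28.5 and 47.0 FPKM, low in MYC knockdown replicate 1 only. CALCOCO2, an autophagy receptor for mitochondria and bacteria, was at 31.9 and 32.4 against 53.3 and 50.2 FPKM (log2 difference 0.67, limma adjusted p = 0.0556), and it was the only one of 10 tested mitophagy genes under 0.10, against 10.4% of all genes. PHB2, an inner membrane mitophagy receptor, was at 109 and 105 against 95.3 and 79.5 FPKM (limma adjusted p = 0.190).

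**Figure D2:**
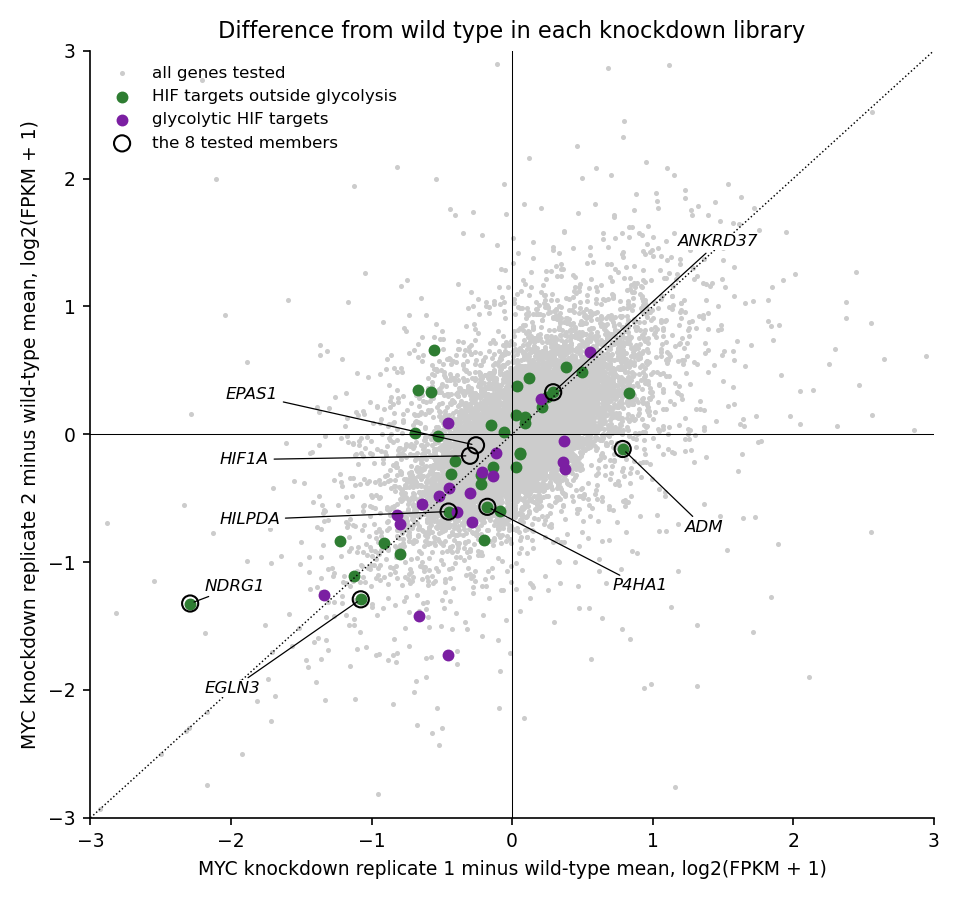
Difference of each gene from its wild-type mean on the log2(FPKM + 1) scale in MYC knockdown replicate 1 (horizontal axis) and MYC knockdown replicate 2 (vertical axis), for all 12953 genes tested, 17 of which lie outside the axes. Circled are the 8 tested genes of the 10; NDRG1 (−2.29 and −1.32) and EGLN3 (−1.08 and −1.29) lie low in both libraries and ADM (0.79 and −0.11) in 1 direction per library.

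The wider set of HIF targets held genes in both directions. Outside glycolysis and beyond the 10 genes, 31 of 41 listed targets were tested. At an adjusted p under 0.10, 2 were higher and 5 lower, against 5.5% and 4.91% of all genes, and 0 passed 0.05. The groups did not overlap for 18 targets (8 higher, 10 lower), 58.1% in all against 58.6% of all genes tested. Their median difference was −0.12, against 0.04 over all genes. In MYC knockdown replicate 1 this median was −0.14, with 0.07 over all genes. In the other knockdown library both medians were 0.01.

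The 5 lower targets were below wild type in both knockdown libraries. DDIT4, an inhibitor of mTORC1 that hypoxia and amino acid stress both induce, was at 143 and 137 FPKM in wild type and 63.7 and 64.2 FPKM in the knockdown (log2 difference −1.12, limma adjusted p = 0.0556). LOXL2, a lysyl oxidase of collagen, was at 136 and 137 against 58.0 and 76.2 FPKM. MXI1, a MAX partner that opposes MYC, was at 14.2 and 13.6 against 6.92 and 7.25 FPKM. FAM162A, a mitochondrial protein of hypoxic cells, was at 25.2 and 26.1 against 14.4 and 12.9 FPKM. LOXL2, MXI1 and FAM162A were named after their values were seen, as were the genes of the next sentences. TFRC, the transferrin receptor, was at 140 and 132 against 100.5 and 110 FPKM. The limma adjusted p of these 5 lower genes lay between 0.0556 and 0.0925. The 2 higher targets were PLOD1 and WSB1, a ubiquitin ligase adaptor at 23.1 and 24.2 against 33.7 and 33.6 FPKM (limma adjusted p = 0.0639).

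Several HIF targets, named here after their values were seen, split the knockdown libraries. VEGFA, the vascular growth factor, was at 104 and 102 FPKM in wild type, 69.9 FPKM in MYC knockdown replicate 1 and 164 FPKM in MYC knockdown replicate 2. STC2, a secreted glycoprotein, was at 53.1 and 44.6 FPKM, then 32.3 and 61.6 FPKM. MIR210HG, the host transcript of the hypoxia-induced miR-210, was at 5.02 and 7.30 FPKM, then 3.45 and 7.99 FPKM. These 3 were lower than wild type in MYC knockdown replicate 1 and higher in MYC knockdown replicate 2, the opposite order to ADM.

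Of 20 glycolytic HIF targets, all tested, 8 were lower and 1, SLC16A3, was higher under an adjusted p of 0.10, against 4.91% and 5.5% of all genes. Their median difference was −0.41. HK2, the inducible hexokinase, had the largest difference, at 29.7 and 29.1 FPKM in wild type and 11.03 and 11.75 FPKM in the knockdown (log2 difference −1.30, limma adjusted p = 0.0556). SLC2A3, the glucose transporter GLUT3, was at 9.50 and 9.59 against 6.67 and 2.18 FPKM, mostly low in MYC knockdown replicate 2 (limma adjusted p = 0.205). SLC2A1, the transporter GLUT1, was named after its values were seen and was slightly higher, at 86.2 and 88.8 against 101 and 106 FPKM. Many genes of this list are also known as MYC targets.

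**Figure D3:**
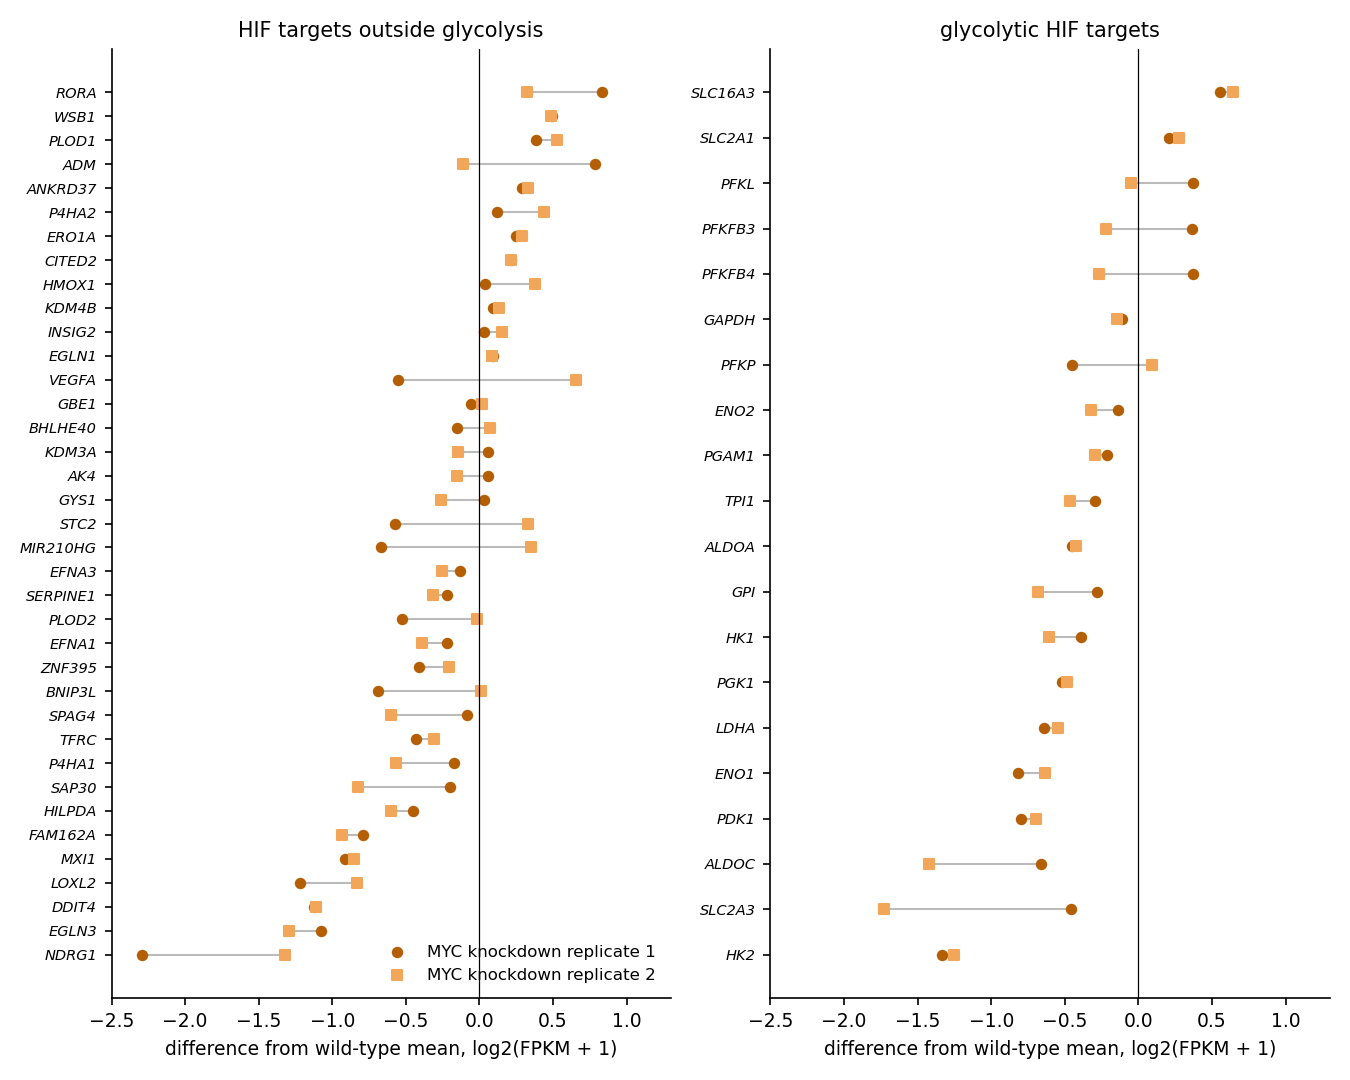
Difference from the wild-type mean on the log2(FPKM + 1) scale for the 37 tested HIF targets outside glycolysis (left) and the 20 glycolytic ones (right), with 1 point per knockdown library joined by a line and genes ordered by their mean difference. NDRG1 has the lowest mean of both panels at −1.81, and long lines such as those of VEGFA, ADM and SLC2A3 mark genes on which the knockdown libraries differ.

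The genes with the pattern most like NDRG1 were sought among the 9592 other genes with a mean of at least 5 FPKM. Likeness was the Euclidean distance over the 4 libraries between differences from each gene's own wild-type mean, so it describes this one table. SCD, the fatty acid desaturase, was nearest at a distance of 0.26, with 13.7 and 14.2 FPKM in wild type and 2.29 and 4.09 FPKM in the knockdown. Like NDRG1 it was lowest in MYC knockdown replicate 1. Next came the pseudogene RP11-169K16.7 at 0.56 and SERPINA3, a secreted protease inhibitor, at 0.57, the latter with 104 and 107 against 23.3 and 61.0 FPKM. The FABP5 pseudogene FABP5P7 followed at 0.62. For both pseudogenes, reads may be shared with a parent gene. SERPINB2, an inhibitor of plasminogen activators, stood at 0.78 and COL4A1, a basement membrane collagen, at 0.80. None of these 6 was in the lists of HIF targets. Those lists hold only 69 genes, against 9592 compared, so this absence says little about NDRG1 and HIF targets. HILPDA was number 472, P4HA1 number 1256, HIF1A number 1505, EPAS1 number 1960 and ADM number 8717 in the same order, while EGLN3 and ANKRD37 were below the minimum level.

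**Figure D4:**
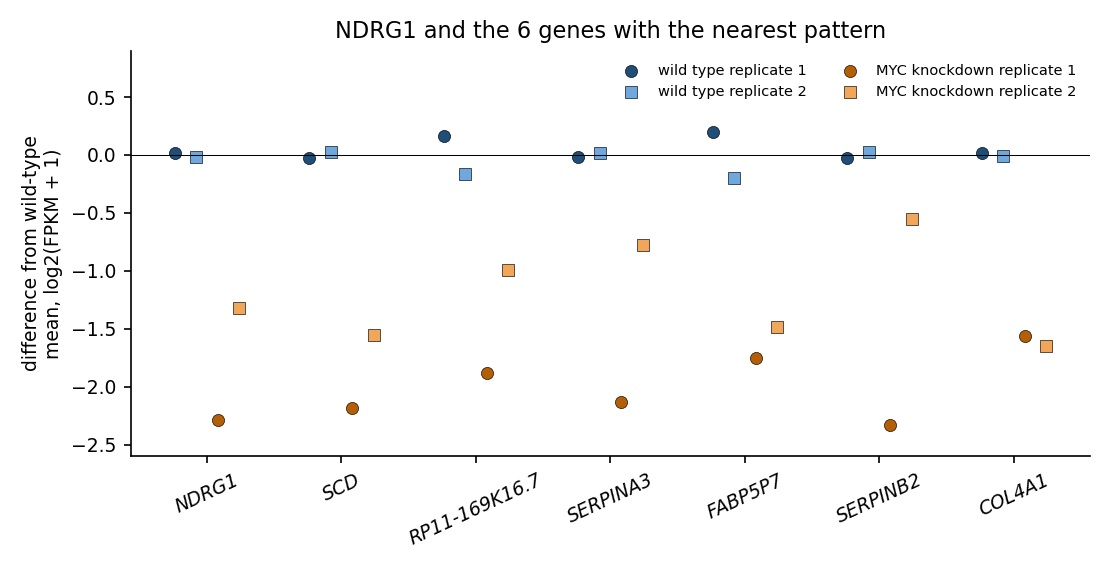
Difference from each gene's wild-type mean on the log2(FPKM + 1) scale in the 4 libraries, for NDRG1 and the 6 genes at the smallest distance from it. SCD follows NDRG1 in both knockdown libraries, while COL4A1 has nearly equal knockdown values.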

How the data were processed

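RNA of 2 wild-type and 2 MYC knockdown NUGC3 libraries was extracted with Trizol and made into libraries by an Illumina protocol, per the labels' protocols. The submitters' processing notes name STAR and RSEM; their versions, the genome build, the annotation and the strandedness are not given in these sources. The deposited values are FPKM per gene, a unit inferred from the values, since columns sum to 674328 to 739335 and not to 1 total. TPM with rows left out would give the same ratios between genes. The depth is unknown, so no counting interval is given. Of 344810 rows, the 53777 Ensembl genes were used.

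The 12953 genes that reached 1 FPKM in 2 or more libraries were fitted on the log2(FPKM + 1) scale. The linear models and the moderated test with a mean-variance trend came from limma 3.58.1 under R 4.3.3, with Benjamini-Hochberg adjustment over all fitted genes and thresholds of 0.05 and 0.10. The fit was also run on simulated data with the same spread for all genes in both groups, unlike these libraries. That run therefore says nothing about the p-values given here. Library groups and replicate numbers came from the titles. Lists were matched by symbol or gene identifier, and PECAM1 did not match.

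Named genes were the 10, MYC, up to 2 genes of each pathway list with the largest difference among those with a mean of at least 5 FPKM and groups that did not overlap, and the 6 genes most like NDRG1. 1 gene that this rule names is not reported here. Further genes of the lists are named outside this rule, and only some of them are marked. The members, lists and thresholds were chosen with earlier results of these data known. Alternatives were the pseudocount, the filter, a replicate block, each library left out, 3 scalings and protein-coding rows alone. Gene positions are from GENCODE 29 on GRCh38 and promoters from RefSeq on GRCh38.p14.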

Additional observations from a re-analysis of the deposited data

How the results depend on the processing

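The number of genes called depended on the setting. At an adjusted p of 0.05 limma called 0 genes, and 310 over genes averaging 5 FPKM or more, 313 with median of ratios scaling and 385 with protein-coding rows alone. Leaving out 1 library gave 0 to 3413 genes, with 3384 and 3413 called without MYC knockdown replicate 1 or 2, where the lone knockdown library was assumed to vary like the wild-type pair. At 0.10 it called 1349, and 0 with no filter and 2230 (1643 higher, 587 lower) with equal column sums, which moved the median of all genes from 0.04 to 0.12. Leaving out 1 library gave 0 to 5359 genes at 0.10. With the replicate number as a block, limma called 0 genes at 0.05 and 723 at 0.10. Deviations of same-numbered libraries had a correlation of −0.0059 over genes tested. Whether same-numbered libraries shared a batch is not stated and cannot be read from this value. The median of the 37 tested HIF targets outside glycolysis, with NDRG1 and others of the 10 genes included, was −0.12. It was −0.065 with no filter, −0.028 with equal column sums, −0.16 with median of ratios and −0.15 with quantile normalization. With 1 library left out it was −0.15 to −0.095. The median without the 10 genes was not followed through these settings. NDRG1 kept its sign in every alternative run, between −2.29 and −1.32, as did HILPDA (−0.61 to −0.44). EGLN3 kept its sign (−1.44 to −1.08) in every run that held it. Its mean of 4.84 FPKM left it out of the run over genes averaging 5 FPKM or more. Of 35 named genes fitted, 1 changed sign in any alternative, ADM, at −0.11 to 0.79 with 1 library left out, the lowest without MYC knockdown replicate 1 and the highest without MYC knockdown replicate 2. Of 34 named genes other than NDRG1, 16 were under 0.10, against 0 with no filter and 13 with the replicate block. Most of the 34 were named for a large difference in this same comparison. Their count is thus high by choice and cannot be weighed against the 10.4% of all genes. The causes were not tested. With 2 libraries per group and no depth given, small differences such as those of HIF1A and EPAS1 cannot be resolved.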
